A study of Mus musculus with 77 samples.

Results

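The genes described here are the ATF4 stress and tRNA synthetase genes, 39 genes named by symbol among the 24940 genes of 4 deposited expression tables from mouse lungs and macrophages. They were chosen by name, with earlier results of these data known, so the choice was not independent of the data. They comprise 7 transcription factors, 8 feedback and effector genes, 8 enzymes of amino-acid synthesis, 4 transporters and 12 tRNA synthetases. Messenger RNA was measured by RNA-seq, as TPM, a relative transcript abundance corrected for transcript length and depth, in lungs of mouse pups and in macrophages grown from bone marrow. Lung libraries came from Trem2 knockout mice (KO, a Jackson Laboratory strain), DBA/2J mice (DBA) and C57BL/6J mice (B6). KO and DBA each had 4 libraries from hyperoxia and 4 from room air, and B6 had 3 and 4. Hyperoxia pups breathed 75% oxygen from the first 24 h of life to postnatal day 14, and room-air pups of the same age served as their controls. Another set of B6 lungs under the same exposure, here called set 2, held 3 hyperoxia and 2 room-air libraries. Macrophages differentiated from bone marrow (BMDM) of KO, DBA and B6 mice were kept in hyperoxia or room air for 24 h, with 2 libraries in each of the 6 groups. Per the column headers, all KO, DBA and set 2 lung libraries were from males. Of the B6 lung libraries, 2 of the 4 room-air and 1 of the 3 hyperoxia ones were from females, so sex is uneven between genotypes. Each B6 macrophage group held 1 library marked F and 1 marked MF, and all KO and DBA macrophage libraries were marked MF. The oxygen level in culture is given only as a code, 95, in the column headers. Trem2 is a surface receptor of macrophages that binds lipids. The design sets the oxygen response of mice without it, and of the DBA strain, against that of B6 mice.

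ATF4 is a transcription factor whose protein is made mainly when translation initiation factor eIF2 is phosphorylated, in what is called the integrated stress response. Kinases that sense amino-acid shortage, misfolded protein, heme shortage or double-stranded RNA phosphorylate eIF2, which lowers protein synthesis in general while ATF4 mRNA is translated. ATF4 then switches on genes that make and import amino acids, charge tRNAs, and feed back on the response, so that the messenger RNA of these targets is a common readout of the pathway. ATF4 binds with C/EBP partners at a composite site, the C/EBP-ATF response element (CARE), with the core TGATGNAA. In the newborn lung, high oxygen damages epithelium and endothelium and stalls the formation of alveoli.

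The promoter stretches that hold the CARE core are shown because the genes that moved together in the macrophages include several of them. Windows from 250 bases before to 50 bases after the start site came from RefSeq (GRCm38.p6, the mm10 build), and 32 of the 39 genes had one. TGATGNAA was searched on both strands and was present in 12 of 32 windows (37.5%). Among all listed genes with a window it was present in 600 of 17668 (3.4%). Windows were kept where the RefSeq start lay within 100 bases of the start in the expression data. The members were named as ATF4 genes, so their higher share was not independent of that choice. Of these 12 genes, 11 are described here: the transcription factor genes Atf3 and Nupr1, the effector genes Trib3, Chac1, Herpud1 and Vldlr, the synthesis genes Asns and Pycr1, and the synthetase genes Gars, Iars and Tars. With oxygen, Atf3, Trib3, Chac1, Asns and Gars rose in macrophages of all 3 genotypes. Herpud1 fell in KO and B6 macrophages, Nupr1, Iars and Tars were not called there, and Vldlr and Pycr1 were too low to test. A link between the core and the response was not tested. Each line below is read 5′ to 3′ on the strand of the gene, with the 8 bases of the match in capitals. Where the core lies on the other strand, its reverse complement is in capitals. The palindromic cyclic-AMP response element TGACGTCA, which shares no 8-base match with the CARE core, was in 1 of 32 windows (3.1%), that of Ppp1r15a, against 2.45% of all windows. The endoplasmic reticulum stress element, searched in a single exact form on both strands, was in 0 of 32, against 0.16% of all windows. Variant forms of that element were not searched, so a window without a match may still hold one. These matches describe the letters of the windows and do not show binding.
Chac1, chr2:119351038-119351067, plus strand: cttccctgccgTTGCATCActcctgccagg
Trib3, chr2:152344028-152344057, minus strand: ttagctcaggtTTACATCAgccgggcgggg
Asns, chr6:7693214-7693243, minus strand: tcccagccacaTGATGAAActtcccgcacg
Atf3, chr1:191183425-191183454, minus strand: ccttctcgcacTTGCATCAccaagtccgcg
Nupr1, chr7:126625562-126625591, minus strand: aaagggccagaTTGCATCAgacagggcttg
Herpud1, chr8:94386306-94386335, plus strand: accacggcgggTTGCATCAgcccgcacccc
Gars, chr6:55037960-55037989, plus strand: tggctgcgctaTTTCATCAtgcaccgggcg

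The Chac1 match lay 193 bases before the start site, within this upstream stretch of 250 bases (chr2:119350992-119351241, plus strand), which is given whole as an example. Chac1 was near the low end of detection in most room-air macrophage libraries. Chac1 encodes an enzyme that breaks down glutathione.
Chac1 upstream: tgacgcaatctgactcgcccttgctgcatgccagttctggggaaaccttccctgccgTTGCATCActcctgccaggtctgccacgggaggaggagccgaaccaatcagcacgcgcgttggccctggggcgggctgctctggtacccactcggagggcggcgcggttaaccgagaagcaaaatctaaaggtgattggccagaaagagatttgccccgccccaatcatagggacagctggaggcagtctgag

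**Figure D1:**
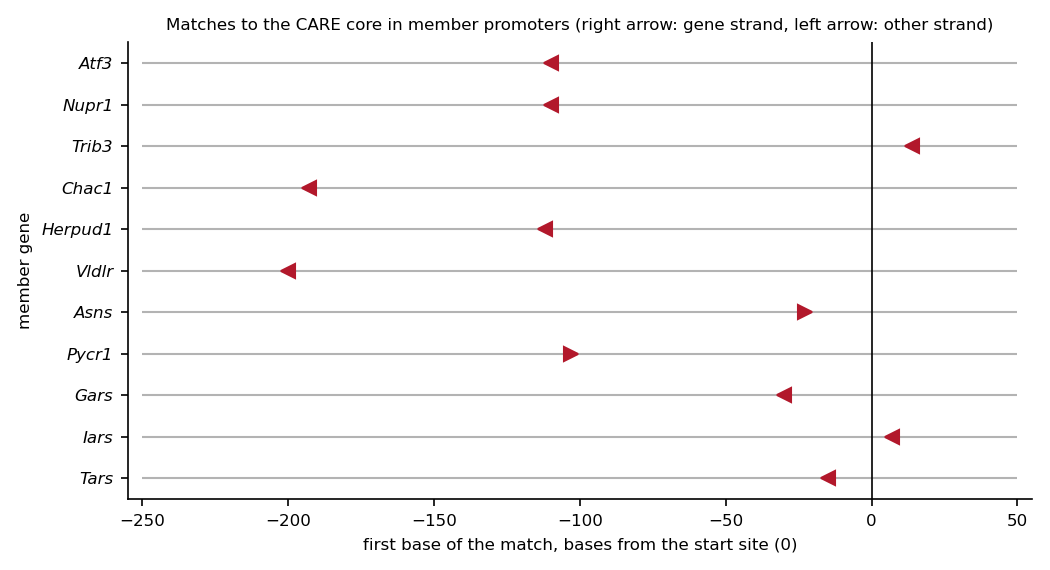
Position of each match to the CARE core in the promoter windows of 11 genes that hold one; the x axis is the first base of the match in bases from the RefSeq start site (0), and arrows pointing right mark matches on the strand of the gene and arrows pointing left matches on the other strand. Atf3 and Nupr1 both held it at -110 and Herpud1 at -112.

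The libraries held an estimated 14.6 to 47.0 M reads in the macrophage table, 18.5 to 41.1 M in the B6 and KO lung table, 12.5 to 41.1 M in the B6 and DBA lung table and 7.08 to 8.04 M in set 2. Both lung tables carry the same 7 B6 libraries, so KO and DBA are set against the same mice. Trem2 itself was at 243 to 252 TPM in KO and 908 to 917 TPM in B6 macrophages in hyperoxia, and at 1.05 to 2.75 TPM in KO lungs and 2.14 to 9.85 TPM in B6 lungs over both airs. Macrophage markers (6 genes) summed to 3298 to 4261 TPM in the macrophage libraries. Of the markers of lung epithelium, Sftpc and Scgb3a2 were listed at 0 there and Scgb1a1 reached at most 0.792 TPM. However, 2 alveolar type 2 and 2 alveolar type 1 markers were high enough to be tested in macrophages. Column headers carry a date code: each DBA lung group spans 2 codes, KO and B6 lungs share codes in part, and DBA shares none with B6. In macrophages the B6 libraries carry another date than the KO and DBA libraries, so genotype and date cannot be told apart there. The airway transcript Scgb1a1 was at 29190 to 104100 TPM in DBA room-air lungs, against 7635 to 10910 TPM in B6 room-air lungs. It was also high in DBA hyperoxia lungs, at 30830 to 39940 TPM. Set 2, also B6, held 24430 to 27050 TPM in room air and 18830 to 32570 TPM in hyperoxia. The 2 DBA room-air libraries of the earlier date code were at 49450 and 29190 TPM, and the 2 of the later code at 89420 and 104100 TPM. The labels do not say that libraries come from separate animals or cultures in every group, so p-values measure the spread between these libraries, which may be technical. In whole lung, a change in the number of cells of a type and a change in RNA per cell cannot be told apart.

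Oxygen raised a large share of the genes in macrophages of every genotype. By limma on log2(TPM + 1), with Benjamini-Hochberg adjustment over all genes tested and a threshold of 0.05, 20 of 35 tested members rose and 2 fell in KO macrophages, 20 rose and 1 fell in DBA macrophages, and 20 rose and 2 fell in B6 macrophages. Among all genes tested the same calls were made for 6.88% higher and 16.4% lower in KO, 5.73% and 13% in DBA, and 5.68% and 22.8% in B6 macrophages. The median log2 difference of the members was 0.485 in KO, 0.384 in DBA and 0.582 in B6, against -0.084, -0.064 and -0.134 for all genes in the same order. Of the 21 members that rose in at least 1 genotype, 19 rose in all 3. Those 19 were 5 transcription factors (Atf3, Atf4, Atf5, Ddit3, Cebpb), 4 effector genes (Trib3, Ppp1r15a, Sesn2, Chac1), 2 synthesis genes (Asns, Mthfd2), 3 transporters (Slc7a1, Slc7a5, Slc3a2) and 5 synthetases (Aars, Cars, Eprs, Gars, Sars). Chac1 counts among the 19, but it passed the filter on low values through its hyperoxia libraries, as given below. Stc2, Vldlr, Pycr1 and Slc7a3 were too low in macrophages to be tested. Proliferation genes moved the other way in the same libraries, with 9 of 16 lower and 1 higher in KO, 12 and 1 in DBA, and 15 and 1 in B6, and their part in the result was not tested. Fibroblast markers summed to 24.2 to 31.7 TPM in hyperoxia and 85.5 to 107 TPM in room air in KO macrophages, to 29.3 to 32.8 and 74.8 to 88.5 TPM in DBA macrophages, and to at most 0.611 TPM in B6 macrophages. Neutrophil markers fell in 3 of 3 tested genes in KO and in B6 macrophages and were called in 0 of 3 in DBA. Their 5 genes summed to 7.43 to 9.5 TPM in hyperoxia and 41.5 to 77.8 TPM in room air in KO, to 2.25 to 2.55 and 5.14 to 6.59 TPM in DBA, and to 2.85 to 7.0 and 22.7 to 37.3 TPM in B6, with Ly6g listed at 0 throughout. The part of either marker list in the result was not tested.

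**Figure D2:**
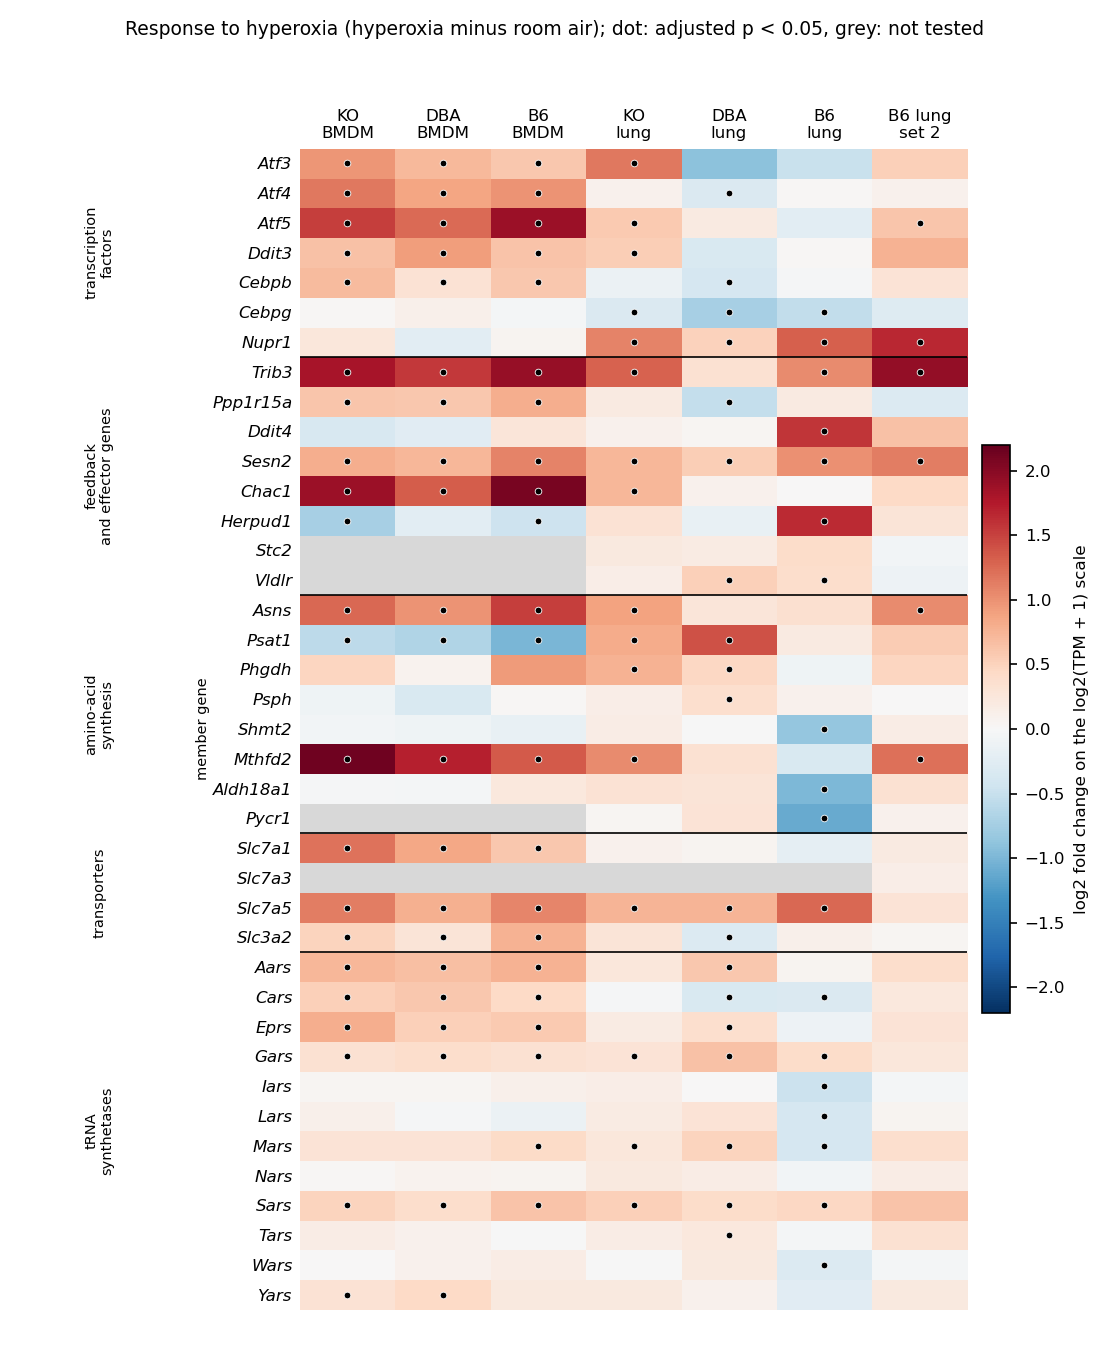
Log2 difference in TPM + 1, hyperoxia minus room air, for each of the 39 genes (rows, grouped by role) in KO, DBA and B6 macrophages, in KO, DBA and B6 lungs and in B6 lung set 2 (columns). A dot marks limma adjusted p under 0.05 and grey marks a gene that was too low to test. In the macrophage columns 19 genes are higher in all 3, while the B6 lung column holds 9 higher and 9 lower genes.

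Among the transcription factors, Atf4 messenger RNA was at 183 and 173 TPM in KO macrophages in hyperoxia, against 83.5 and 75.2 TPM in room air. It was at 205 and 211 TPM in DBA macrophages in hyperoxia, against 111 and 115 TPM in room air, and at 210.2 and 189.8 TPM in B6 macrophages in hyperoxia, against 103 and 97.5 TPM in room air. No hyperoxia library overlapped a room-air library in any genotype. In groups of 2, full separation is common without a change. The share of all genes whose groups separate was not computed, here or for lungs. The rise was 1.16 ± 0.07 (log2, SE; adjusted p = 2.03e-05) in KO, 0.87 ± 0.07 (adjusted p = 0.0001) in DBA and 0.99 ± 0.07 (adjusted p = 3.44e-05) in B6. Atf5, a paralogue of ATF4 that is also controlled through eIF2, rose further in each genotype. It was at 163 and 161 TPM in KO macrophages in hyperoxia, against 58.3 and 52.9 TPM in room air, and at 119 and 97.9 TPM in B6 macrophages in hyperoxia, against 31.4 and 25.8 TPM in room air. DBA macrophages held 157 and 143 TPM in hyperoxia, against 65.3 and 60.6 TPM in room air. The Atf5 differences were 1.53 ± 0.11 in KO (adjusted p = 3.73e-05), 1.24 ± 0.11 in DBA (adjusted p = 0.00017) and 1.89 ± 0.11 in B6 (adjusted p = 1.76e-05). Atf5 lies across 571 bases of the start of Nup62 on the other strand, and the counting is not stated to use strand, so reads in the overlap cannot be assigned.

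Ddit3, encoding CHOP, which promotes death under lasting stress, was at 69.8 and 72.9 TPM in KO macrophages in hyperoxia, against 48.7 and 41.8 TPM in room air. In DBA macrophages it was at 88.9 and 88.5 TPM in hyperoxia, against 48.3 and 45.2 TPM in room air, and in B6 macrophages at 59.4 and 61.1 TPM, against 43.2 and 34.8 TPM. The rise was modest and free of overlap in each genotype, at 0.65 ± 0.10 in KO (adjusted p = 0.0017), 0.91 ± 0.10 in DBA (adjusted p = 0.000472) and 0.62 ± 0.10 in B6 (adjusted p = 0.00193). Ddit3 and Mars overlap by 68 bases at their ends on opposite strands. Atf3, a stress-induced repressor and activator, was at 246 and 243 TPM in KO macrophages in hyperoxia, against 132 and 116 TPM in room air. DBA macrophages held 337 and 334 TPM, against 207 and 201 TPM, and B6 macrophages 394 and 429.6 TPM, against 237 and 312 TPM. Atf3 rose by 0.97 ± 0.11 in KO (adjusted p = 0.000391), 0.71 ± 0.11 in DBA (adjusted p = 0.00254) and 0.60 ± 0.11 in B6 (adjusted p = 0.00423). The Atf3 call in B6 was lost when only the groups compared were fitted, as were those of Herpud1, Slc7a1, Cars, Gars and Mars. Cebpb, encoding a C/EBP partner, rose by 0.70 ± 0.08 in KO, 0.33 ± 0.08 in DBA and 0.59 ± 0.08 in B6. Cebpg, another C/EBP partner that pairs with ATF4, and Nupr1, a small stress-induced chromatin protein, did not pass the test in any macrophage genotype.

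Of the feedback and effector genes, 4 rose in every macrophage genotype. Trib3, a pseudokinase that binds ATF4 and dampens it, was at 9.18 and 9.63 TPM in KO macrophages in hyperoxia, against 1.96 and 1.96 TPM in room air. It was at 11.9 and 14.5 TPM in DBA macrophages in hyperoxia, against 4.32 and 3.40 TPM in room air, and at 8.87 and 10.2 TPM in B6 macrophages, against 1.82 and 1.79 TPM. The hyperoxia libraries were clear of the room-air libraries in all 3 genotypes, with differences of 1.81 ± 0.12 in KO (adjusted p = 2.88e-05), 1.55 ± 0.12 in DBA (adjusted p = 0.0001) and 1.91 ± 0.12 in B6 (adjusted p = 2.72e-05). Chac1 was at 3.92 and 3.29 TPM in KO macrophages in hyperoxia, against 0.197 and 0.289 TPM in room air. It was at 3.10 and 3.84 TPM in DBA macrophages, against 1.22 and 0.419 TPM, and at 3.99 and 4.01 TPM in B6 macrophages, against 0.222 and 0.132 TPM. Chac1 reached 1 TPM in all 6 hyperoxia libraries and in 1 of 6 room-air libraries, so it passed the filter on low values through the group where it was high and had to differ. Its log2 differences of 1.89 ± 0.20, 1.33 ± 0.20 and 2.09 ± 0.20 in KO, DBA and B6 are on log2(TPM + 1), a scale that understates the change of a gene this low. Sesn2, which restrains the growth kinase mTORC1 when amino acids are short, rose by 0.80 ± 0.10 in KO (adjusted p = 0.000598), 0.72 ± 0.10 in DBA (adjusted p = 0.0014) and 1.09 ± 0.10 in B6 (adjusted p = 0.000129). Ppp1r15a, encoding the phosphatase subunit that dephosphorylates eIF2 and ends the response, rose by 0.60 ± 0.08 in KO, 0.60 ± 0.08 in DBA and 0.80 ± 0.08 in B6. Herpud1, which takes part in the disposal of misfolded protein from the endoplasmic reticulum, fell in KO and B6 macrophages. It was at 25.3 and 24.6 TPM in KO macrophages in hyperoxia, against 40.1 and 44.5 TPM in room air, a difference of -0.74 ± 0.08 (adjusted p = 0.000325). In B6 macrophages it was at 21.6 and 21.7 TPM, against 32.7 and 27.9 TPM, a difference of -0.46 ± 0.08 (adjusted p = 0.00309).

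**Figure D3:**
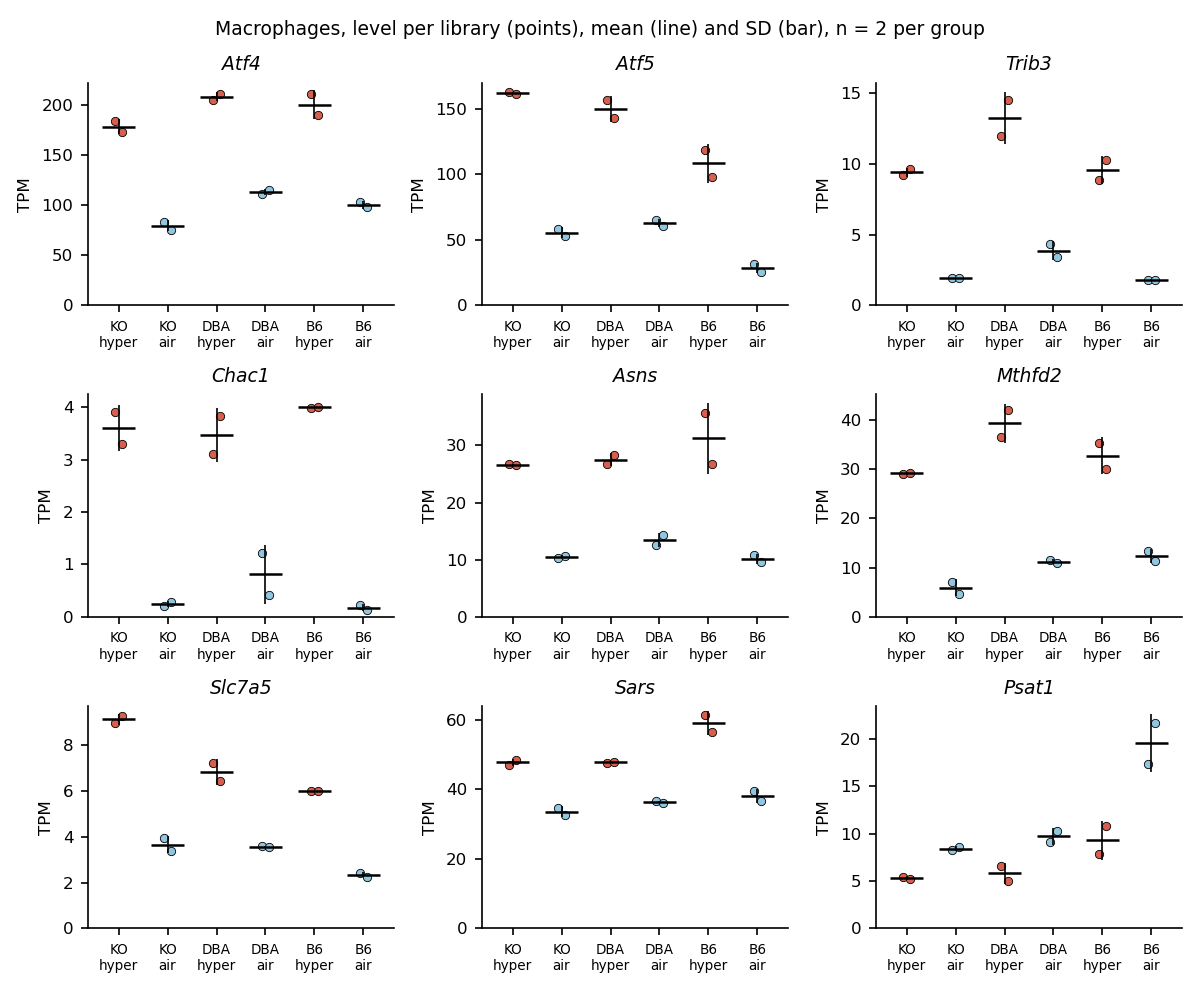
TPM of 9 genes (panels) in each macrophage library, with points for libraries, a line for the mean and a bar for the SD (n = 2 per group); hyperoxia is drawn left of room air within KO, DBA and B6. For Atf4, Atf5, Trib3, Chac1, Asns, Mthfd2, Slc7a5 and Sars every hyperoxia library lies above both room-air libraries of its genotype, and for Psat1 every one lies below. All 9 genes were called in every genotype, so the separation adds no further support. Chac1 passed the filter on low values through its hyperoxia libraries.

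Amino-acid synthesis split within the macrophages. Asns, asparagine synthetase, was at 26.7 and 26.6 TPM in KO macrophages in hyperoxia, against 10.4 and 10.7 TPM in room air. In DBA macrophages it was at 26.8 and 28.3 TPM, against 12.6 and 14.3 TPM, and in B6 macrophages at 35.7 and 26.8 TPM, against 10.7 and 9.52 TPM. Its groups did not overlap, and the rise was 1.26 ± 0.12 in KO (adjusted p = 0.000166), 0.98 ± 0.12 in DBA (adjusted p = 0.000799) and 1.52 ± 0.12 in B6 (adjusted p = 5.76e-05). Mthfd2, a mitochondrial enzyme of one-carbon metabolism, was at 29.0 and 29.3 TPM in KO macrophages in hyperoxia, against 7.13 and 4.70 TPM in room air. DBA macrophages held 36.5 and 42.1 TPM, against 11.6 and 10.9 TPM, and B6 macrophages 35.4 and 30.1 TPM, against 13.3 and 11.3 TPM. Mthfd2 had the largest log2 difference of any member in KO macrophages, 2.15 ± 0.16 (adjusted p = 3.73e-05), with 1.72 ± 0.16 in DBA (adjusted p = 0.000195) and 1.34 ± 0.16 in B6 (adjusted p = 0.000397). Psat1, which makes phosphoserine on the way to serine, went the other way. It was at 5.44 and 5.20 TPM in KO macrophages in hyperoxia, against 8.25 and 8.59 TPM in room air, and at 6.55 and 5.04 TPM in DBA macrophages, against 9.07 and 10.3 TPM. B6 macrophages held 7.83 and 10.8 TPM, against 17.4 and 21.7 TPM. Psat1 fell by 0.66 ± 0.16 in DBA (adjusted p = 0.0187), and the B6 difference was -1.0 ± 0.16 (adjusted p = 0.00187). The KO difference of -0.58 ± 0.16 (adjusted p = 0.0279) lost its call under quantile normalization, without a filter on low values and without any 1 KO library. The DBA call was lost without the second library of either air. Phgdh, the first enzyme of serine synthesis, was at 3.51 and 4.50 TPM in KO macrophages in hyperoxia, against 2.75 and 2.40 TPM in room air, and did not pass the test in any genotype. Psph, Shmt2 and Aldh18a1, enzymes of serine, glycine and proline synthesis, did not pass it either.

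All 3 tested transporters rose in every macrophage genotype. Slc7a5, the light chain of the carrier for large neutral amino acids, was at 8.97 and 9.30 TPM in KO macrophages in hyperoxia, against 3.93 and 3.40 TPM in room air. DBA macrophages held 7.22 and 6.43 TPM, against 3.59 and 3.53 TPM, and B6 macrophages 6.00 and 6.01 TPM, against 2.43 and 2.27 TPM. These differences were 1.12 ± 0.10 (adjusted p = 9.07e-05), 0.78 ± 0.10 (adjusted p = 0.000839) and 1.07 ± 0.10 (adjusted p = 0.000129). Slc3a2, the heavy chain shared by Slc7a5 and related carriers, was far more abundant, at 213 and 209 TPM in KO macrophages in hyperoxia, against 154.5 and 146.6 TPM in room air. It was at 345.5 and 337.1 TPM in DBA macrophages, against 294 and 265 TPM, and at 178 and 182 TPM in B6 macrophages, against 106 and 106 TPM. Slc3a2 rose by 0.48 ± 0.06 in KO, 0.29 ± 0.06 in DBA and 0.76 ± 0.06 in B6. Slc7a1, a carrier of arginine and lysine, rose by 1.2 ± 0.12 in KO, 0.85 ± 0.12 in DBA and 0.60 ± 0.12 in B6.

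Of the 12 cytosolic tRNA synthetases, 6 rose and none fell in each macrophage genotype. Eprs, which charges tRNAs for glutamate and proline, was at 51.9 and 52.5 TPM in KO macrophages in hyperoxia, against 30.9 and 28.5 TPM in room air, a difference of 0.79 ± 0.06 (adjusted p = 6.82e-05). Aars, alanyl-tRNA synthetase, was at 65.1 and 66.3 TPM in KO macrophages, against 41.6 and 37.1 TPM, and rose by 0.73 ± 0.09 in KO, 0.66 ± 0.09 in DBA and 0.77 ± 0.09 in B6. Sars, seryl-tRNA synthetase, was at 61.5 and 56.7 TPM in B6 macrophages in hyperoxia, against 39.5 and 36.6 TPM in room air, and rose by 0.62 ± 0.06 there, by 0.50 ± 0.06 in KO and by 0.38 ± 0.06 in DBA. Cars and Gars, for cysteine and glycine, also rose in all 3, Gars by 0.33 ± 0.07 in KO, 0.38 ± 0.07 in DBA and 0.33 ± 0.07 in B6. The sixth gene differed by genotype: it was Yars, for tyrosine, in KO and DBA (0.32 and 0.43) and Mars, for methionine, in B6 (0.42), and no difference of response between genotypes passed the test for either gene. The Yars call was lost in 5 of 9 alternatives in KO and 3 of 9 in DBA, and the Mars call in 3 of 9 in B6. Under quantile normalization 8 of 12 rose in KO, 7 in DBA and 8 in B6, and that scaling moved the median of all genes by 0.147 in B6. Iars, Lars, Nars, Tars and Wars did not pass the test in any macrophage genotype. Wars, tryptophanyl-tRNA synthetase, which interferon also induces, was at 26.5 and 26.5 TPM in KO macrophages in hyperoxia, against 27 and 25.6 TPM in room air. Interferon-stimulated genes fell in the same libraries, 11 of 14 in KO, 9 in DBA and 9 in B6.

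In lungs fewer members were called higher than in macrophages of the same genotype. In KO lungs 15 of 38 tested members rose and 1 fell with hyperoxia, where 10.6% of all genes tested rose and 9.11% fell. In DBA lungs 13 rose and 6 fell, where 18.6% of all genes rose and 12.4% fell. In B6 lungs 9 rose and 9 fell, where 16.6% of all genes rose and 26% fell, so that the share of members called lower, 9 of 38, was near the background. In set 2, with fewer reads and fewer libraries, 6 of 39 rose and 0 fell, where 3.13% of all genes rose and 1.81% fell. At an unadjusted p under 0.05, limma gave 15 higher and 1 lower member in set 2. The median log2 difference of the members was 0.235 in KO, 0.221 in DBA, -0.004 in B6 and 0.3 in set 2, against 0.005, 0.046, -0.074 and 0.008 for all genes in the same order. Slc7a3, a further cationic amino-acid carrier, was too low to test in the KO and DBA tables. Of the 19 members that rose in all 3 macrophage genotypes, 11 rose and 0 fell in KO lungs, 6 rose and 5 fell in DBA lungs, 5 rose and 1 fell in B6 lungs, and 5 rose and 0 fell in set 2. Sesn2 was the 1 gene higher in all 7 oxygen responses, and Nupr1 and Sesn2 were the 2 higher in all 4 lung responses. Stc2, Slc7a3 and Nars were called in none of the 7.

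**Figure D4:**
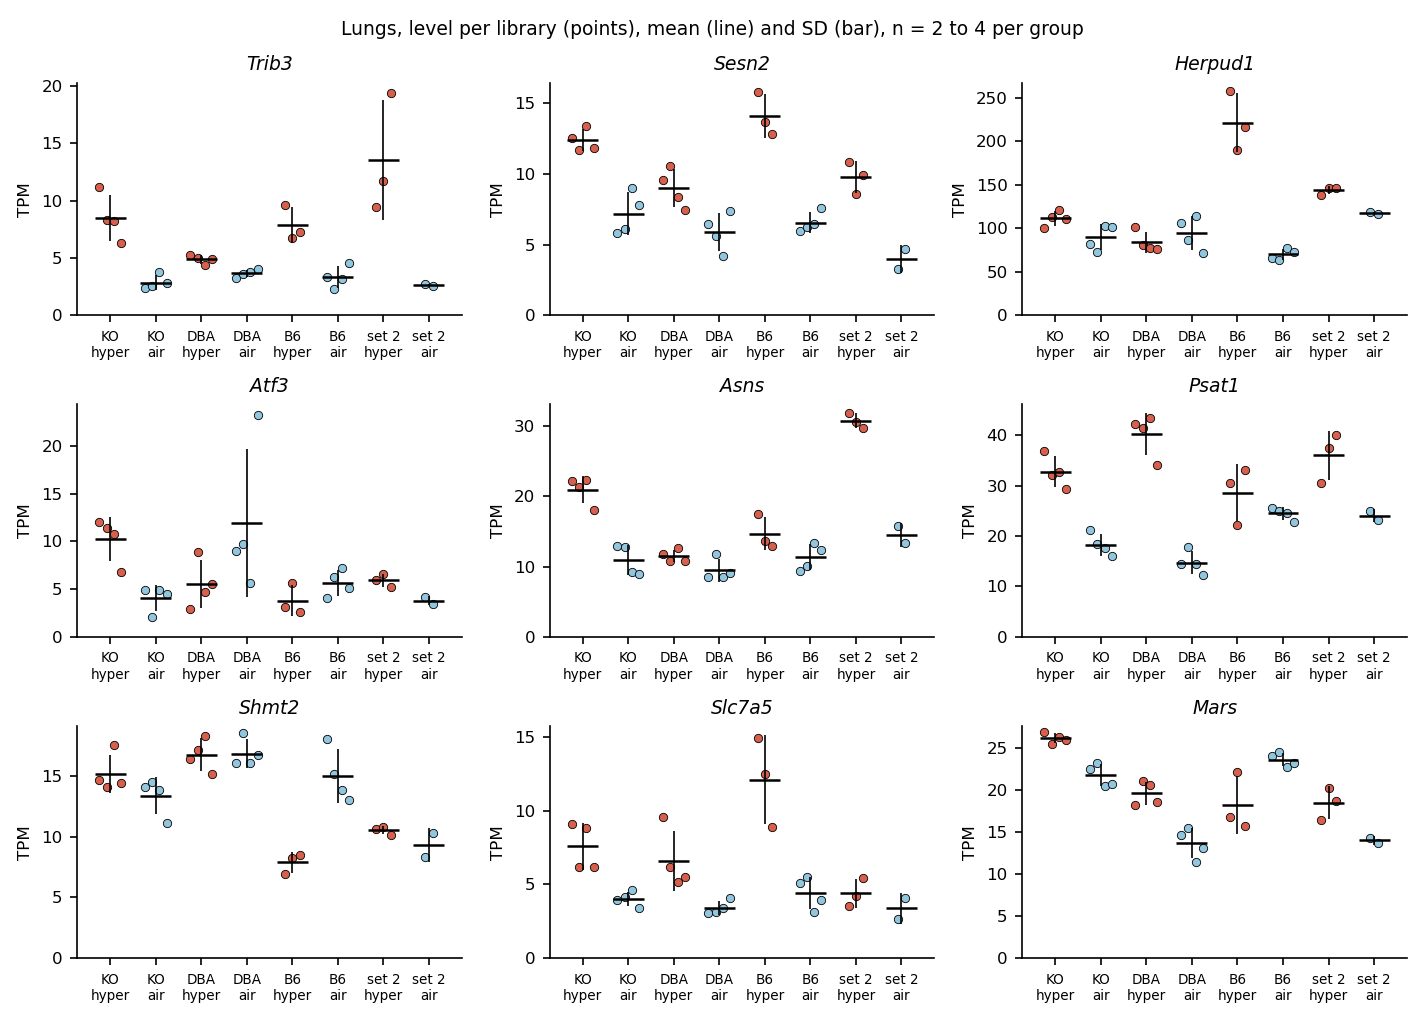
TPM of 9 genes (panels) in each lung library, with points for libraries, a line for the mean and a bar for the SD (n = 2 to 4 per group); hyperoxia is drawn left of room air within KO, DBA, B6 and set 2. Sesn2 and Trib3 are higher in hyperoxia in each set of lungs, Herpud1 is highest in B6 hyperoxia lungs, and Shmt2 is lower in B6 hyperoxia lungs than in every B6 room-air lung.

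Atf4 messenger RNA showed little change in lungs. It was at 176, 174, 169 and 163 TPM in KO lungs in hyperoxia, against 151, 168, 155 and 167 TPM in room air, and at 180.1, 165 and 161 TPM in B6 lungs in hyperoxia, against 166, 167, 165 and 161 TPM in room air. These groups overlapped, and neither passed the test. In DBA lungs it was at 156, 195, 176 and 193 TPM in hyperoxia, against 231, 229.5, 208 and 225 TPM in room air. All 4 hyperoxia libraries lay below all 4 room-air libraries, a difference of -0.32 ± 0.08 (adjusted p = 0.00701). The set 2 values were 172, 185 and 195 TPM in hyperoxia, against 169 and 173 TPM in room air.

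Other transcription factors rose in KO lungs. Atf3 was at 12.1, 11.4, 10.8 and 6.83 TPM in KO lungs in hyperoxia, against 4.91, 2.10, 4.90 and 4.50 TPM in room air, a difference of 1.16 ± 0.24 (adjusted p = 0.00425). Each of the 4 KO hyperoxia libraries exceeded each KO room-air library. In B6 lungs Atf3 was at 3.12, 5.67 and 2.63 TPM in hyperoxia, against 4.02, 6.27, 7.20 and 5.08 TPM in room air, and in DBA lungs at 2.88, 8.88, 4.69 and 5.58 TPM, against 9.04, 9.73, 5.66 and 23.3 TPM. Those groups overlapped and did not pass the test. Atf5 was at 49.8, 47.4, 54.9 and 47.0 TPM in KO lungs in hyperoxia, against 27.8, 33.0, 32.6 and 40.1 TPM in room air, a rise of 0.57 ± 0.10 (adjusted p = 0.00174) with no overlap. In set 2 Atf5 was at 63.8, 71.1 and 74.6 TPM in hyperoxia, against 40.3 and 50.5 TPM in room air, and its call (0.62 ± 0.14, adjusted p = 0.0391) was lost without any 1 library. Ddit3 was at 51.2, 46.4, 51.2 and 46.8 TPM in KO lungs in hyperoxia, against 26.8, 35.3, 35.6 and 37.1 TPM in room air, a rise of 0.53 ± 0.10 (adjusted p = 0.00156). It was at 31.0, 36.6 and 32.5 TPM in B6 lungs in hyperoxia, against 31.1, 30.7, 33.2 and 36.6 TPM in room air, and at 17.2, 20.1, 23.0 and 23.6 TPM in DBA lungs, against 35.6, 32.8, 23.5 and 18.1 TPM. Neither passed the test. Immediate early genes also moved in KO lungs, 3 of 12 higher and 1 lower, and their part in the Atf3 result was not tested.

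Nupr1 rose in every set of lungs and in no macrophages. It was at 439, 402, 415 and 359.6 TPM in KO lungs in hyperoxia, against 208, 162, 199.5 and 186 TPM in room air. B6 lungs held 393, 468 and 369 TPM, against 150.0, 180.0, 174 and 153 TPM, and DBA lungs 235, 178, 189 and 222 TPM, against 129, 129, 166 and 155 TPM. No hyperoxia library overlapped a room-air library. The rises were 1.10 ± 0.10 in KO (adjusted p = 4.04e-06), 0.50 ± 0.12 in DBA (adjusted p = 0.00461), 1.31 ± 0.11 in B6 (adjusted p = 3.71e-07) and 1.66 ± 0.17 in set 2 (adjusted p = 0.00155). Cebpg was lower in KO lungs by -0.32 ± 0.09 (adjusted p = 0.0158), in DBA lungs by -0.73 ± 0.13 (adjusted p = 0.000821) and in B6 lungs by -0.54 ± 0.09 (adjusted p = 0.000243). Cebpb fell in DBA lungs alone among the 4 tests, by 0.37 (adjusted p = 0.00688).

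Among the effector genes, Trib3 was at 11.2, 8.34, 8.21 and 6.32 TPM in KO lungs in hyperoxia, against 2.37, 2.53, 3.77 and 2.78 TPM in room air. It was at 9.65, 6.71 and 7.30 TPM in B6 lungs, against 3.37, 2.28, 3.14 and 4.56 TPM, and at 9.46, 11.7 and 19.4 TPM in set 2, against 2.74 and 2.58 TPM. All hyperoxia libraries of these sets lay above all their room-air libraries, with rises of 1.29 ± 0.18 in KO (adjusted p = 0.000234), 1.05 ± 0.20 in B6 (adjusted p = 0.000535) and 1.93 ± 0.26 in set 2 (adjusted p = 0.00559). In DBA lungs Trib3 was at 5.24, 5.03, 4.35 and 4.90 TPM in hyperoxia, against 3.29, 3.60, 3.81 and 4.00 TPM in room air; the groups did not overlap, and the test was not passed. Sesn2 was at 12.5, 11.7, 13.4 and 11.9 TPM in KO lungs, against 5.85, 6.11, 9.04 and 7.78 TPM, and at 15.8, 13.7 and 12.8 TPM in B6 lungs, against 5.95, 6.26, 6.45 and 7.60 TPM. It rose by 0.72 ± 0.12 in KO (adjusted p = 0.000859), 0.55 ± 0.14 in DBA (adjusted p = 0.00984), 1.00 ± 0.13 in B6 (adjusted p = 2.39e-05) and 1.12 ± 0.18 in set 2 (adjusted p = 0.0119). Chac1 was at 2.46, 2.51, 2.36 and 1.83 TPM in KO lungs in hyperoxia, against 0.315, 1.22, 1.31 and 1.21 TPM in room air. Its rise of 0.74 ± 0.22 (adjusted p = 0.0289) lost its call with date code as a term, within date code 3 alone, and without KO room-air library 1 or any of KO hyperoxia libraries 1, 2 and 3.

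Herpud1 and Ddit4 rose in B6 lungs and were called in neither KO nor DBA lungs nor in set 2. Herpud1 was at 257.4, 190.0 and 216.9 TPM in B6 lungs in hyperoxia, against 66.3, 64.0, 77.3 and 72.8 TPM in room air, a rise of 1.64 ± 0.13 (adjusted p = 2.39e-07). It was at 100.0, 113.2, 121.2 and 111.2 TPM in KO lungs in hyperoxia, against 82.0, 72.2, 103 and 101 TPM in room air, and at 101, 80.9, 76.9 and 76.2 TPM in DBA lungs, against 106, 86.7, 114 and 71.3 TPM. Neither KO nor DBA lungs passed the test. In set 2, also B6, Herpud1 was at 138, 147 and 146 TPM in hyperoxia, against 118 and 116 TPM in room air, with no overlap but a difference of 0.29 ± 0.11 (adjusted p = 0.174). Ddit4, a hypoxia and stress-induced inhibitor of mTORC1, was at 39, 56.7 and 44.8 TPM in B6 lungs in hyperoxia, against 12.3, 12.8, 17.6 and 17.7 TPM in room air, a rise of 1.57 ± 0.20 (adjusted p = 2.39e-05). KO lungs held 19.9, 25.0, 24.0 and 24.3 TPM, against 18.6, 15.0, 26.0 and 30.9 TPM, and set 2 lungs 11.7, 15.3 and 16.1 TPM, against 5.81 and 12.9 TPM. Those groups overlapped. Genes that respond to glucocorticoid hormone, which also induces Ddit4, moved with these B6 libraries: 13 of 14 were higher in B6 lungs with hyperoxia and 0 lower, against 2 higher and 7 lower in KO lungs, 0 and 8 in DBA lungs and 2 and 4 in set 2. The summed level of that list was 1309 to 1599 TPM in B6 hyperoxia lungs and 528.5 to 816.7 TPM in B6 room-air lungs, and its part in the Ddit4 and Herpud1 results was not tested. Vldlr, a lipoprotein receptor that ATF4 can induce, rose by 0.39 in B6 lungs and by 0.52 in DBA lungs, and the B6 call was lost with date code as a term and in males alone. Ppp1r15a fell by 0.52 ± 0.11 in DBA lungs (adjusted p = 0.00282), and Stc2, a secreted glycoprotein, was called in none of the lung responses.

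Of the 8 synthesis enzymes, 4 rose and 0 fell in KO lungs, 3 rose and 0 fell in DBA lungs, 0 rose and 3 fell in B6 lungs, and 2 rose and 0 fell in set 2. Asns was at 22.1, 21.3, 22.4 and 18.1 TPM in KO lungs in hyperoxia, against 12.9, 12.7, 9.26 and 8.93 TPM in room air, and at 31.9, 30.7 and 29.8 TPM in set 2, against 15.7 and 13.3 TPM. In B6 lungs it was at 17.4, 13.7 and 13.0 TPM, against 9.37, 10.1, 13.3 and 12.4 TPM, and in DBA lungs at 11.7, 10.8, 12.7 and 10.8 TPM, against 8.49, 11.8, 8.47 and 9.04 TPM. The rise was called in KO lungs (0.89 ± 0.14, adjusted p = 0.000522) and in set 2 (1.04 ± 0.13, adjusted p = 0.00439), and the B6 and DBA groups overlapped. Mthfd2 was at 15.7, 11.8, 13.3 and 10.2 TPM in KO lungs in hyperoxia, against 6.57, 7.80, 3.89 and 4.92 TPM in room air (1.04 ± 0.23, adjusted p = 0.00643). In set 2 it was at 9.92, 13.0 and 12.2 TPM, against 5.13 and 3.81 TPM (1.22 ± 0.18, adjusted p = 0.0084). B6 lungs showed no such separation for Mthfd2, with 8.73, 5.54 and 3.75 TPM in hyperoxia, against 6.90, 5.04, 9.5 and 9.21 TPM in room air. Psat1 was at 42.3, 41.4, 43.3 and 34.1 TPM in DBA lungs in hyperoxia, against 14.3, 17.7, 14.5 and 12.2 TPM in room air, the largest difference of a member in DBA lungs (1.40 ± 0.13, adjusted p = 9.6e-06). It was at 37.0, 32.1, 32.7 and 29.4 TPM in KO lungs, against 21.2, 18.4, 17.6 and 16 TPM (0.81 ± 0.11, adjusted p = 0.000223). In B6 lungs the Psat1 groups overlapped, at 30.5, 22.2 and 33.0 TPM, against 25.6, 25.0, 24.5 and 22.8 TPM. Psat1 had opposite signs in KO and DBA lungs, where it rose, and in macrophages, where it fell. Phgdh was at 7.21, 10.8, 7.90 and 7.41 TPM in KO lungs, against 4.17, 5.53, 4.37 and 3.85 TPM (0.76 ± 0.14, adjusted p = 0.00147), with every hyperoxia library above every room-air library. Phgdh and Psph also rose in DBA lungs, by 0.46 (adjusted p = 0.0342) and 0.37 (adjusted p = 0.0285), but both calls were lost without room-air library 2 or 3 or hyperoxia library 1, 3 or 4.

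The 3 synthesis genes that fell in B6 lungs were Shmt2, which makes glycine in mitochondria, and Aldh18a1 and Pycr1, the first and last enzymes of proline synthesis from glutamate. Shmt2 was at 6.89, 8.24 and 8.47 TPM in B6 lungs in hyperoxia, against 18, 15.2, 13.8 and 13.0 TPM in room air (-0.84 ± 0.12, adjusted p = 6.03e-05). KO lungs held 14.6, 14.0, 17.5 and 14.4 TPM, against 14.1, 14.4, 13.8 and 11.1 TPM. Aldh18a1 was at 7.33, 7.25 and 5.29 TPM in B6 lungs, against 17.5, 13.6, 13.2 and 12.2 TPM (-0.99 ± 0.13, adjusted p = 3.27e-05). Pycr1 was at 3.30, 1.73 and 1.73 TPM in B6 lungs, against 7.09, 5.71, 5.20 and 5.59 TPM (-1.11 ± 0.17, adjusted p = 0.000113). All 3 genes separated the B6 groups with no overlap and did not pass the test in KO, DBA or set 2 lungs. Shmt2 and Ndufa4l2 overlap by 34 bases on opposite strands.

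Among transporters, Slc7a5 was at 9.10, 6.21, 8.83 and 6.17 TPM in KO lungs in hyperoxia, against 3.93, 4.16, 4.59 and 3.44 TPM in room air. DBA lungs held 9.56, 6.20, 5.15 and 5.48 TPM, against 3.04, 3.15, 3.40 and 4.11 TPM, and B6 lungs 14.9, 12.4 and 8.90 TPM, against 5.10, 5.51, 3.14 and 3.93 TPM. It rose with no overlap by 0.76 ± 0.18 in KO (adjusted p = 0.00759), 0.75 ± 0.19 in DBA (adjusted p = 0.00867) and 1.27 ± 0.19 in B6 (adjusted p = 8.29e-05), and was not called in set 2, at 3.54, 4.21 and 5.44 TPM, against 2.65 and 4.10 TPM. Slc3a2 was at 74.7, 78.8, 62.8 and 61.3 TPM in DBA lungs, against 83.3, 78.7, 84.7 and 94.6 TPM, a difference of -0.30 (adjusted p = 0.0429) whose call was lost in 9 of 16 alternatives. It was at 72.7, 62.3, 74.2 and 59.5 TPM in KO lungs, against 54.8, 47.0, 62.8 and 56.1 TPM, and did not pass the test. Slc7a1 was called in none of the 4 lung oxygen responses.

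The tRNA synthetases rose in DBA lungs, 6 of 12 higher and 1 lower, and in KO lungs, 3 higher and 0 lower, while in B6 lungs 2 were higher and 5 lower. Sars and Gars rose in all 3 sets. Sars was at 63.0, 61.9, 62.1 and 58.5 TPM in KO lungs in hyperoxia, against 36.1, 44.9, 44.6 and 43.4 TPM in room air (0.53 ± 0.08, adjusted p = 0.000367). It was at 43.2, 40.6, 39.2 and 38.5 TPM in DBA lungs, against 32.9, 31.6, 29.8 and 26.8 TPM (0.41, adjusted p = 0.00194), and at 58.2, 61.5 and 49.0 TPM in B6 lungs, against 41.7, 40.4, 40.5 and 39.5 TPM (0.46, adjusted p = 0.000544). Every hyperoxia library was above every room-air library in all 3 sets. Gars was at 69.7, 64.2, 69.6 and 58.9 TPM in DBA lungs, against 43.8, 49.7, 38.3 and 36.1 TPM, the largest difference among the DBA synthetases (0.64 ± 0.10, adjusted p = 0.000327). Aars was at 33.6, 34.9, 31.6 and 29.3 TPM in DBA lungs, against 24.3, 26.6, 18.8 and 16.2 TPM (0.59 ± 0.14, adjusted p = 0.00608), and at 47.6, 42.6, 48.8 and 46.6 TPM in KO lungs, against 40.4, 39.9, 37.3 and 37.0 TPM, where it was not called. Mars moved in opposite directions, at 18.3, 21.0, 20.6 and 18.6 TPM in DBA lungs in hyperoxia, against 14.7, 15.5, 11.5 and 13.1 TPM in room air (0.49, adjusted p = 0.00347), and at 16.8, 22.2 and 15.8 TPM in B6 lungs, against 24.1, 24.6, 22.8 and 23.2 TPM (-0.37, adjusted p = 0.00485). The Mars rise in KO lungs (0.26, adjusted p = 0.0491) lost its call in all 8 fits that left out a KO library, and the Gars rise there (0.30, adjusted p = 0.0329) in 5 of them. Iars, Lars, Cars and Wars were called lower with Mars in B6 lungs, with log2 differences of -0.48, -0.37, -0.33 and -0.31. With B6 males alone, 10 members were called in B6 lungs, and Cebpg, Vldlr, Cars, Gars, Lars, Mars, Sars and Wars were lost. Within date code 1 alone, Vldlr, Cars, Lars, Mars and Wars were lost. In set 2, 0 of 12 synthetases passed limma's adjusted test, and 3 were higher at an unadjusted p under 0.05.

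Within date code 4, with 2 DBA libraries in each air, 1 member was called for DBA lungs, Psat1, and within date code 5 there were 11. Without the 2 DBA room-air libraries of date code 5, 10 members were called, and Cebpb, Vldlr, Phgdh, Psph, Slc3a2, Aars, Cars, Eprs, Mars and Tars were lost. Atf4, Nupr1, Sesn2, Phgdh, Psph, Slc7a5, Cars and Tars were lost within date code 5 alone. The fit without the 2 DBA room-air libraries of date code 5 was chosen after the airway transcripts had been seen. Neutrophil markers moved with the DBA response, 3 of 3 tested higher, the list summing to 101.7 to 430.2 TPM in DBA hyperoxia lungs and 65.5 to 107 TPM in DBA room-air lungs. Alveolar type 2 markers moved with it, 6 of 7 higher, summing to 13200 to 25950 TPM in DBA hyperoxia lungs and 7202 to 12090 TPM in DBA room-air lungs. Proliferation genes moved with it too, 16 of 16 higher in DBA lungs, 11 in KO lungs, 5 higher and 3 lower in B6 lungs and 5 higher in set 2. Of 6 lymphocyte markers 4 fell in KO lungs, 1 in DBA, 3 in B6 and 2 in set 2. The part of these lists in the results was not tested.

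The B6 lungs and set 2 carry the same labels, and their members moved in the same direction in 19 of the 38 genes tested in both. Nupr1, Trib3 and Sesn2 rose in both, which is 3 of the 9 called higher in B6 lungs and 3 of the 6 in set 2. KO lungs and set 2 had the same direction in 32 of 38 genes, and 6 rose in both, which is 6 of 15 in KO lungs and all 6 of set 2 (Atf5, Nupr1, Trib3, Sesn2, Asns, Mthfd2). DBA lungs and set 2 had the same direction in 26 of 38. The shares of all genes with the same direction or with shared calls were not computed. These counts therefore do not show whether the agreement is particular to the members. Set 2 was normalized and fitted apart from the other tables, and every set 2 call was lost without either room-air library.

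KO lungs and the B6 lungs fitted with them differed in hyperoxia and in the size of the response. Set 2, also B6, was not part of this contrast. There Atf5 and Mthfd2 rose, as in KO lungs, and Shmt2, Aldh18a1, Pycr1, Herpud1 and Ddit4 were not called, as in KO lungs. Atf3, Ddit3, Psat1 and Phgdh, which rose in KO lungs, were not called in set 2. Whether the contrast holds against set 2 was not tested. In room air 0 of 38 members differed between KO and B6 lungs by limma, where 0.0512% of all genes were higher and 0.0256% lower, and 5 members passed at an unadjusted p under 0.05, 2 higher and 3 lower. In hyperoxia 15 were higher and 3 lower in KO than in B6 lungs, where 22% of all genes were higher and 15.2% lower. The difference of oxygen responses, KO minus B6, was positive for 13 members and negative for 2, where 16.4% of all genes were called positive and 8.98% negative. A positive difference is a larger rise or a smaller fall in KO. The median difference of responses was 0.277 for the members and 0.089 for all genes. Synthesis genes made up the largest group, with a positive difference for 6 of 8: Mthfd2 by 1.37 ± 0.34 (adjusted p = 0.00878), Aldh18a1 by 1.31 ± 0.18 (adjusted p = 0.000147), Pycr1 by 1.16 ± 0.23 (adjusted p = 0.00224), Shmt2 by 1.01 ± 0.17 (adjusted p = 0.000513), Phgdh and Psat1. Shmt2, Aldh18a1 and Pycr1 fell in B6 lungs, as given above, and were not called in KO lungs, while Mthfd2, Phgdh and Psat1 rose in KO lungs and were not called in B6 lungs. Asns, which rose in KO lungs, was not among them (0.54 ± 0.20, adjusted p = 0.0644). Atf3, Atf5 and Ddit3, which rose in KO lungs and were not called in B6 lungs, differed by 1.66 ± 0.36, 0.81 ± 0.15 and 0.51 ± 0.14, and the Ddit3 call was lost with date code as a term and in males alone. Herpud1 and Ddit4, which rose in B6 lungs and were not called in KO lungs, differed by -1.32 ± 0.17 (adjusted p = 9.24e-05) and -1.48 ± 0.28 (adjusted p = 0.00135). Of the synthetases Iars, Lars, Mars and Yars had positive differences of 0.63, 0.54, 0.63 and 0.46, of which Iars, Lars and Mars fell in B6 lungs and Mars alone was called, as higher, in KO lungs. The Yars call was lost with date code as a term and without B6 hyperoxia library 3 or KO hyperoxia library 1. Atf4, Trib3 and Sesn2 showed differences of 0.06 ± 0.09, 0.24 ± 0.27 and -0.27 ± 0.18 that did not pass the test.

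All KO hyperoxia lungs carry date code 3 and all B6 hyperoxia lungs date code 1, so genotype and date cannot be told apart within hyperoxia. With date code as a term, 10 members differed between KO and B6 hyperoxia lungs, 6 higher and 4 lower, and Atf3, Atf5, Ddit3, Cebpg, Asns, Phgdh, Mthfd2, Slc7a5, Lars and Yars were no longer called. Glucocorticoid-responsive genes moved with this contrast, with positive differences of responses for 0 of 14 and negative ones for 11. The endoplasmic reticulum chaperone genes moved with it as well, with 10 of 20 positive and 1 negative, where 13 fell in B6 lungs. Macrophage markers were higher in KO hyperoxia lungs, 5 of 6 genes, with sums of 139.5 to 193 TPM in KO and 94.3 to 141 TPM in B6 hyperoxia lungs. The part of these lists in the result was not tested.

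**Figure D5:**
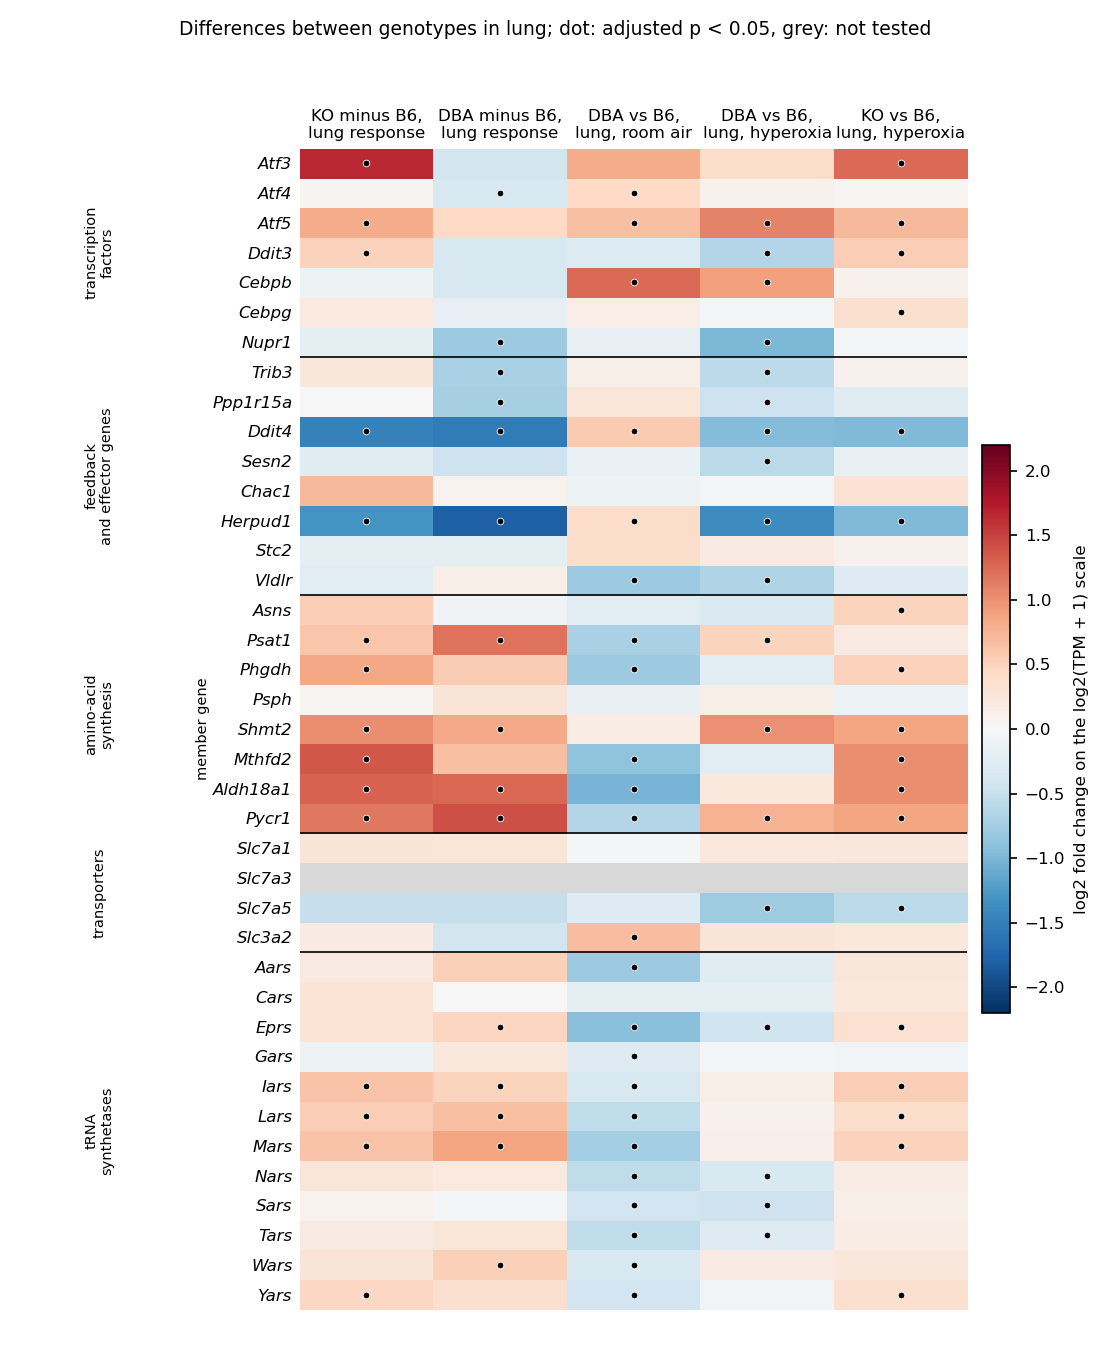
Log2 differences of the 39 genes (rows, grouped by role) for 5 lung comparisons (columns): the KO minus B6 oxygen response, the DBA minus B6 oxygen response, DBA over B6 in room air, DBA over B6 in hyperoxia and KO over B6 in hyperoxia. A dot marks limma adjusted p under 0.05 and grey marks a gene too low to test. Of the 8 synthesis genes the difference of responses is positive for 6 in KO and 4 in DBA lungs, it is negative for Herpud1 and Ddit4 in both, and 11 of 12 synthetases are lower in DBA room-air lungs.

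DBA lungs differed from B6 lungs already in room air. There 6 of 38 members were higher and 17 lower in DBA, where 21.5% of all genes were higher and 34.8% lower. Under quantile normalization the split was 10 higher and 15 lower. The lower genes were mostly synthetases, 11 of 12, and synthesis enzymes, 5 of 8. Eprs was at 27.5, 28.4, 22.3 and 24.6 TPM in DBA room-air lungs, against 49.9, 45.1, 50.3 and 52.2 TPM in B6 room-air lungs (-0.92 ± 0.09, adjusted p = 8.29e-07). Aldh18a1 was at 7.17, 7.18, 5.16 and 6.06 TPM in DBA, against 17.5, 13.6, 13.2 and 12.2 TPM in B6 (-1.03 ± 0.13, adjusted p = 1.38e-05). Neither gene's groups overlapped. Cars, the 1 synthetase not called, was at 16, 14.6, 15.5 and 14.7 TPM in DBA, against 18.3, 18, 17.7 and 17.0 TPM in B6. Under quantile normalization 9 of 12 synthetases were lower. The transcription factors went the other way, with Atf4 (0.44 ± 0.08, adjusted p = 0.000241), Atf5 (0.66 ± 0.11, adjusted p = 0.00016) and Cebpb higher in DBA. Cebpb was at 156, 154, 193 and 170.4 TPM in DBA room-air lungs, against 65.0, 72.7, 69.5 and 73.2 TPM in B6, the largest difference of any member here (1.25 ± 0.09, adjusted p = 8.13e-08). Slc3a2 was higher in DBA by 0.69 ± 0.11 (adjusted p = 6.59e-05).

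In hyperoxia, 5 members were higher and 13 lower in DBA than in B6 lungs, where 23.3% of all genes were higher and 22.8% lower. Effector genes were 6 of the 13, including Herpud1 (-1.39 ± 0.15, adjusted p = 4.13e-06), Ddit4 (-0.95 ± 0.19, adjusted p = 0.000726), Trib3 (-0.58 ± 0.16, adjusted p = 0.00787) and Sesn2 (-0.60 ± 0.15, adjusted p = 0.00529). Ddit3 was lower in DBA hyperoxia lungs by -0.65 ± 0.18 (adjusted p = 0.00789). Atf5, Cebpb, Psat1, Shmt2 and Pycr1 were higher, Atf5 by 1.09 ± 0.12 (adjusted p = 4.96e-06) and Shmt2 by 1.00 ± 0.11 (adjusted p = 5.71e-06). The difference of oxygen responses, DBA minus B6, was positive for 9 members and negative for 6, where 20% of all genes were called positive and 9.2% negative. The share of members called positive, 9 of 38, was near the background. With quantile normalization, which moved the median of all genes by -0.117, the split was 7 and 7. Psat1 (1.2 ± 0.18, adjusted p = 0.000437), Shmt2, Aldh18a1 and Pycr1 had positive differences in DBA, where Psat1 rose and the other 3, which fell in B6 lungs, were not called. The B6 libraries are shared with the KO comparison. Eprs, Iars, Lars, Mars and Wars also had positive differences, with Eprs and Mars called higher in DBA lungs, Iars, Lars, Mars and Wars lower in B6 lungs, and Mars at 0.86 ± 0.16 (adjusted p = 0.00138), and Iars and Wars were lost under quantile normalization. Herpud1 (-1.79 ± 0.21, adjusted p = 7.8e-05), Ddit4, Trib3, Ppp1r15a, Nupr1 and Atf4 had negative differences. Atf4 and Ppp1r15a fell in DBA lungs and were not called in B6, while Herpud1, Ddit4, Trib3 and Nupr1 rose in B6 lungs and Nupr1 alone of these 4 was called in DBA. The Atf4 and Wars calls were lost in males alone and with date code as a term, and those of Trib3, Eprs, Iars and Wars without the 2 DBA room-air libraries of date code 5.

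No date code is shared by DBA and B6 lungs, so strain and date cannot be told apart. Airway markers were higher in DBA than in B6 room-air lungs, 4 of 4, and markers of other cells lower, 6 of 7 for alveolar type 2 cells, 6 of 6 for macrophages, 5 of 6 for lymphocytes and 2 of 3 tested for neutrophils. The sums were 31040 to 109400 TPM of airway and 7202 to 12090 TPM of alveolar type 2 transcripts in DBA, against 8450 to 12010 and 20630 to 31830 TPM in B6. Of the proliferation genes 15 of 16 were lower in DBA room-air lungs and 13 of 14 glucocorticoid-responsive genes higher. In the oxygen response the difference DBA minus B6 was positive for 15 of 16 proliferation genes and 2 of 3 tested neutrophil markers and negative for 13 of 14 glucocorticoid-responsive genes. The part of these lists in the differences was not tested. Without the 2 DBA room-air libraries of date code 5, 21 members differed in room air and 12 in the response.

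Between macrophages, genotype differences were common before and after oxygen but differences of response were not. In room air 11 of 35 members were higher and 7 lower in KO than in B6 macrophages, where 33.9% of all genes were higher and 15.3% lower. In hyperoxia 12 were higher and 5 lower, where 38.1% of all genes were higher and 12.2% lower. In DBA against B6 macrophages 19 were higher and 5 lower in room air, where 40.7% and 16.2% of all genes were, and 12 were higher and 6 lower in hyperoxia, where 46.6% and 14% were. For DBA in room air the share of members called higher, 19 of 35, was above the background, and in the other 3 comparisons it was near or below it. Quantile normalization gave 7 higher and 9 lower for KO in room air, 7 and 8 for KO in hyperoxia, 11 and 8 for DBA in room air and 7 and 10 for DBA in hyperoxia, having moved the median of all genes by -0.147 to -0.263. Atf5 was higher in both, at 58.3 and 52.9 TPM in KO and 65.3 and 60.6 TPM in DBA, against 31.4 and 25.8 TPM in B6 room-air macrophages. Slc3a2 was at 294 and 265 TPM in DBA room-air macrophages, against 106 and 106 TPM in B6 (1.39 ± 0.06, adjusted p = 1.03e-07), and Atf3 was lower in KO (-1.13 ± 0.11, adjusted p = 3.87e-05). For the oxygen response, KO minus B6, 0 of 35 members were called by limma, where 0.657% of all genes had a positive and 0.795% a negative difference, and 8 passed at an unadjusted p under 0.05, 5 positive and 3 negative. For DBA minus B6, the rise of Slc3a2 was smaller (-0.47, adjusted p = 0.0385) and 0 members had a positive difference, where 0.422% of all genes had a positive and 0.552% a negative one, and 7 members were negative at an unadjusted p under 0.05. The Slc3a2 call was lost in 9 of 13 alternatives. A p that misses the threshold in groups of 2 does not show that the responses were equal.

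Other genes of the pathway were examined as lists. The kinases and subunits around eIF2, 13 genes, moved in both directions in macrophages: 2 rose and 4 fell in KO, 2 and 3 in DBA and 2 and 3 in B6 macrophages, and 4 rose in KO, 3 in DBA and 5 in B6 lungs with none lower. In set 2 limma called 0 of 13, and 2 were higher at an unadjusted p under 0.05. Eif2ak2, the double-stranded RNA sensor PKR, fell in macrophages, by 0.61 ± 0.16 in KO (adjusted p = 0.0201) and 0.82 ± 0.16 in B6 (adjusted p = 0.00436). Of 23 other ATF4 targets, 5 of 16 tested rose and 2 fell in KO macrophages, 5 and 3 in DBA and 7 and 2 in B6. In lungs, of 21 tested, 7 rose and 2 fell in KO, 5 and 1 in DBA, 10 and 2 in B6 and 4 and 0 in set 2. Gdf15, a secreted stress cytokine, averaged 276 TPM in KO macrophages in hyperoxia, against 35.6 TPM in room air (2.92 ± 0.24, adjusted p = 6.74e-05), and 212 TPM in B6 macrophages, against 17.3 TPM (3.55 ± 0.24, adjusted p = 2.87e-05). It rose in all 4 lung sets as well, by 2.21 ± 0.18 in KO, 1.14 ± 0.18 in DBA, 1.42 ± 0.19 in B6 and 2.89 ± 0.24 in set 2. Slc7a11, the cystine carrier that supplies glutathione synthesis, rose by 2.89 ± 0.14 in KO, 1.74 ± 0.14 in DBA and 1.47 ± 0.14 in B6 macrophages. Gdf15 is also a p53 target.

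The endoplasmic reticulum chaperone arm, 20 genes driven mainly by ATF6 and XBP1, showed few rises in lungs. In B6 lungs 13 fell and 1 rose, led by Sdf2l1 (-1.43 ± 0.21, adjusted p = 6.77e-05), Pdia4 (-1.33 ± 0.09, adjusted p = 9.36e-08) and Calr (-1.30 ± 0.14, adjusted p = 3.51e-06), while Herpud1 rose in the same libraries. In KO lungs 1 fell and 0 rose, in DBA lungs 3 fell and 1 rose, and in set 2 limma called 0, with 4 lower at an unadjusted p under 0.05. In macrophages 4 rose and 2 fell in KO, 8 rose and 0 fell in DBA, and 2 rose and 7 fell in B6.

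Of the remaining cytosolic synthetases and their scaffold, 11 genes outside the 39, 2 rose and 3 fell in KO macrophages, 1 and 1 in DBA, and 0 and 3 in B6. Of the 12 members, 6 rose and 0 fell in each. The difference between these lists was not tested, and the members were named with earlier results known. In lungs 4 of the 11 rose and 0 fell in KO, 5 rose and 0 fell in DBA, and 2 rose and 5 fell in B6. Of the 17 mitochondrial synthetases, 1 was called in KO macrophages, 1 in DBA and 0 in B6, where 2 were lower at an unadjusted p under 0.05. In B6 lungs 11 of 17 fell and 4 rose, 6 and 4 under quantile normalization, while 5 rose and 0 fell in KO lungs.

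Peaks of p53, the transcription factor that the study profiled by ChIP-seq, were compared with the start sites of the members, because Sesn2 and Ddit4 are p53 targets too. Each of the 10 peak lists was called by the authors on combined replicates, as 200-base regions at least 4-fold over input at a false discovery rate of 0.001, and scores are their tags per 10 M. The KO macrophage ChIP libraries are titled as knockout, but their genotype field gives C57BL/6J; the titles and file headers were followed, and the headers name B6 macrophage input for these lists. Within 10 kb of a start site, 4 of 39 members (10.3%) had a peak in B6 hyperoxia macrophages, against 4.77% of all genes. In that list Sesn2 had a peak at chr4:132515535-132515735, -5179 bases from the start, with a score of 68, and another at chr4:132509625-132509825, 731 bases downstream of it, with a score of 26. Ddit4 had a peak at its start site, chr10:59951701-59951901, with a score of 26, and Yars had 2 with a score of 12. Nars was the fourth gene. Ddit4 itself was at 2.13 and 0.83 TPM in B6 macrophages in hyperoxia, against 1.24 and 0.759 TPM in room air, and was not called. In B6 room-air macrophages 3 members had a peak (7.69%, against 6.34% of all genes), and neither Sesn2 nor Ddit4 was among them. In KO hyperoxia macrophages 3 had one (7.69%, against 1.84%), namely Atf5, Nupr1 and Aars, at 7804, 2552 and 4140 bases downstream of their starts. KO room-air macrophages, B6 hyperoxia lungs and DBA hyperoxia lungs had 1 member each (2.56%), against 1.46%, 0.4% and 0.24% of all genes in that order. The other 4 lists had 0, against 0.22% to 0.33% of all genes. The lists differ in depth, from 3.99 to 33.03 M tags, and in length, from 134 to 4107 peaks, so their counts are not set against each other.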

How the data were processed

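Whole lungs and bone marrow-derived macrophages were profiled by RNA-seq, and p53 binding by ChIP-seq. Expression was deposited as TPM per transcript, with 1 transcript per gene used here. For Pycr1 and Slc7a3 that transcript was not the same in all 4 tables, while all 39 members had the same one in the KO and DBA tables. The submitters' processing notes name STAR, HOMER, Bowtie2 and the mm10 build without roles, and the sources at hand state neither versions nor whether counting used strand. Peak score values are tags per 10 M in 200-base peaks at least 4-fold over input at a false discovery rate of 0.001, called on combined replicates, per the file headers. The 39 members and the other lists were chosen with earlier results of these data known. Lung columns are tied to groups and not to single samples.

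A gene entered the fit if the number of libraries at 1 TPM or more was no less than the size of the smallest group. Fits were made by limma 3.58.1 (R 4.3.3) on log2(TPM + 1), with 1 mean per group, all groups of a table in 1 fit and a mean-variance trend. That left 15614 genes in the KO table, 15623 in the DBA table, 14636 in set 2 and 12320 in macrophages. Tests were two-sided, with Benjamini-Hochberg adjustment over all genes tested and calls at an adjusted p under 0.05, in 19 comparisons. Errors written ± after a log2 difference are standard errors of the fit. A difference of responses is the hyperoxia effect in KO or DBA minus that in B6. No counts were used; depth (as M, or mega, reads) was estimated from the step that 1 read makes in a transcript's values, with at least 99.8% of low values within 0.15 of a whole read. The fitting code was tested on simulated data. In each comparison up to 4 called members per class with the largest differences, and Atf4, Ddit3 and Trib3, carry full statistics; other called members are given by size or name. Alternatives were quantile normalization, a pseudocount of 0.1, no filter, only the groups compared, each library left out, date code as a term or alone, males alone and a replicate block. Python 3.11.15 with pandas 2.3.3 matched promoters, peaks and lists. Of the promoter windows with a match, 1 is not reported here.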

Additional observations from a re-analysis of the deposited data

Results flagged for a closer look

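Single libraries stood apart from the rest of their group in 7 of 195 member and group combinations of 4 lung libraries, and chance flags about 1 in 20. Wars reached 64.8 TPM in 1 B6 room-air lung library. In KO room-air lungs, Atf3 was lowest at 2.10 TPM, Chac1 at 0.315 TPM and Sars at 36.1 TPM, while Cebpg was highest at 37.7 TPM and Nars at 69.2 TPM. Shmt2 reached 17.5 TPM in 1 KO hyperoxia lung library.

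The oxygen response in lungs differed between KO and B6 by the test of the difference itself, on the log2 scale, for 15 members. Set 2, also B6, was not part of this test or of the DBA test below. A positive difference is a larger rise or a smaller fall in KO. Among transcription factors it was positive for Atf3 (1.66), Atf5 (0.81) and Ddit3 (0.515). It was negative for Ddit4 (-1.48) and Herpud1 (-1.32), which rose in B6 lungs. Among synthesis genes it was positive for Psat1 (0.61), Phgdh (0.85), Shmt2 (1.01), Mthfd2 (1.37), Aldh18a1 (1.31) and Pycr1 (1.16), of which Shmt2, Aldh18a1 and Pycr1 fell in B6 lungs and were not called in KO. It was also positive for the synthetases Iars (0.63), Lars (0.54), Mars (0.63) and Yars (0.46).

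Between DBA and B6 lungs the response also differed for 15 members, and the share called positive was near that of all genes. The difference was negative for Atf4 (-0.35), Nupr1 (-0.81), Trib3 (-0.72), Ppp1r15a (-0.725), Ddit4 (-1.53) and Herpud1 (-1.795). It was positive for Psat1 (1.2), Shmt2 (0.84), Aldh18a1 (1.27), Pycr1 (1.42), Eprs (0.48), Iars (0.48), Lars (0.66), Mars (0.86) and Wars (0.52). In macrophages the rise of Slc3a2 was smaller in DBA than in B6 (-0.47). The KO and DBA lung values share the 7 B6 libraries.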

How the results depend on the processing

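Of 237 recomputed counts of called members, 214 stayed within 1.5 times the reported count. The others follow, and the cause was not tested. B6 lungs had 10 called members in males alone. DBA lungs had 1 within date code 4, 11 within date code 5 and 10 without the 2 room-air libraries of date code 5. KO against B6 hyperoxia lungs had 10 with date code as a term. DBA against B6 room-air macrophages had 13 when only those groups were fitted. The DBA minus B6 macrophage response had 0 under quantile normalization, a pseudocount of 0.1 or only the groups compared, and 2 with no filter on low values. Leaving out 1 library gave 0 to 7 in set 2, with 0 without either room-air library, 11 to 17 for KO against B6 hyperoxia macrophages, with 11 without either KO library, and 0 to 2 for the DBA minus B6 macrophage response. A lone library left in an arm is assumed to vary like the other groups. Of 291 called values, 114 lost the call under at least 1 alternative, and 2 turned sign under quantile normalization in DBA against B6 hyperoxia macrophages, Yars at -0.031 and Tars at -0.025.

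No label says that replicate numbers pair the libraries. Same-numbered libraries correlated across genes at -0.051 in KO and 0.079 in DBA macrophages, and at 0.047 and 0.008 in set 2. Both B6 macrophage columns of a group carry number 1, so they were matched by sex mark, and correlated at 0.385, a hint of pairing from the data and not from the design. With a replicate block, called members were 23 in KO, 23 in DBA and 24 in B6 macrophages and 6 in set 2, and the response differences had 2 for KO minus B6 and 3 for DBA minus B6, against 0 and 1 without it. Lung numbers restart within date codes, so no block was fitted there. With 2 to 4 libraries a group, 7.08 to 8.04 M reads in set 2 and low levels of Chac1 and Trib3, small changes were not detectable at this depth.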

Other observations

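Other gene lists moved in the same libraries. Of 15 p53 targets, 10 rose and 2 fell in KO macrophages, 10 and 2 in DBA and 11 and 2 in B6, and in lungs 12 rose and 1 fell in KO, 8 and 2 in DBA, 12 and 1 in B6 and 12 and 1 in set 2. Of 14 interferon-stimulated genes, 8 fell and 2 rose in B6 lungs, while 2 rose and 0 fell in KO lungs, and the difference of responses was positive for 8. Of 12 immediate early genes, 8 were higher and 0 lower in DBA than in B6 room-air lungs, where Atf4, Atf5 and Cebpb were higher as well.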
